A study of Mus musculus with 11 samples.

Results

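The classical histone deacetylases are the zinc-dependent class I and class II enzymes, encoded in the mouse by Hdac1, Hdac2, Hdac3 and Hdac8 (class I), Hdac4, Hdac5, Hdac7 and Hdac9 (class IIa) and Hdac6 and Hdac10 (class IIb). Their transcripts were measured in HL-1 cells, a line of cardiomyocytes from the adult mouse heart. The 10 genes are 10 of 16593 gene symbols on the array. Every probe whose platform symbol is one of them was taken, which gave 14 of the 25697 probes, 4 for class I, 7 for class IIa and 3 for class IIb. Hdac5 has 3 probes, Hdac6 and Hdac9 have 2 each and the other genes have 1.

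The cells were left without growth factor (control, 4 arrays) or were given TGF-β2 at 10 ng/mL (4 arrays) or PDGF-BB at 100 ng/mL (3 arrays), in serum-free medium for 23 h. A further PDGF-BB cell sample, which the study described as an outlier, is not analysed here. RNA from the cells of 1 culture flask was hybridized to each MouseRef-8 Expression Beadchip array. All groups are the same cell line, kept before treatment in a medium with norepinephrine, so the flasks are replicate cultures of 1 line and not different animals. The comparisons ask how the growth factors altered the transcripts of the cells from which exosomes were collected, and the exosome arrays are not analysed here.

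Histone deacetylases remove acetyl groups from lysines of histones and other proteins, which as a rule makes chromatin less open to transcription. The class I enzymes are mostly nuclear and work inside corepressor complexes, while the class IIa enzymes have little catalytic activity of their own and act as signal-dependent repressors of MEF2 transcription factors. In cardiomyocytes, kinases that respond to calcium and to hypertrophic stimuli phosphorylate class IIa enzymes, which then bind 14-3-3 proteins and leave the nucleus. The class IIb enzymes act largely in the cytoplasm, HDAC6 on tubulin and HDAC10 on polyamines.

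The 11 arrays had a mean signal of 451 to 846 before normalization, and 11401 to 12455 probes with a detection p-value under 0.05, which compares a probe with the negative control beads of its array. The lowest mean signal was that of PDGF-BB array 1, followed by TGF-β2 array 2 at 528. The arrays lay on 2 chips, with PDGF-BB array 1 and arrays 1 and 2 of both other groups on chip 1 and the rest on chip 2. Of 13 cardiomyocyte marker genes on the array, 12 met the cell filter described next on every array, and the other, Ryr2, passed on none. Of 9 fibroblast markers, 7 endothelial markers and 4 leukocyte markers, 0 passed on all arrays, although Cd3e passed on 9 arrays and Pecam1 and Kdr on 6 each. Of 6 smooth muscle markers 4 passed on all arrays, with Myh11 and Cnn1 on none. The RNA came from whole flasks, so fewer cells of a type and less RNA per cell cannot be told apart.

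Transcripts of 9 of the 10 deacetylase genes were found by at least 1 probe on every array. A probe passed the cell filter on an array with a detection p-value under 0.05 and an authors' normalized signal above 30. On all arrays of the control group 12 of the 14 probes passed, where 41.4% of all probes did. The count was 12 in the TGF-β2-treated group (background 40.6%) and 13 in the PDGF-BB-treated group (background 41.2%), and 12 passed in all 3 groups (background 38.7%).

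Hdac9 was the exception. This class IIa gene also gives rise to a short form that lacks the deacetylase domain, and the platform assigns both of its probes to the same RefSeq transcript. ILMN_2590403 was detected on 0 of 11 arrays, with detection p-values from 0.197 to 0.652, and was not tested between groups. ILMN_2644302 was detected on 7 arrays, with detection p-values from 0.00501 to 0.0965 over all 11. It read 5.59, 6.29, 5.70 and 5.98 on the control arrays, 5.45, 6.18, 5.59 and 5.78 on the TGF-β2 arrays and 6.59, 5.78 and 5.92 on the PDGF-BB arrays. These and all values below are log2 signals after background correction and quantile normalization. The 7 arrays with detection were control 2 and 4, TGF-β2 2 and 4 and all 3 PDGF-BB arrays, and the ranges of the 3 groups overlapped.

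**Figure D1:**
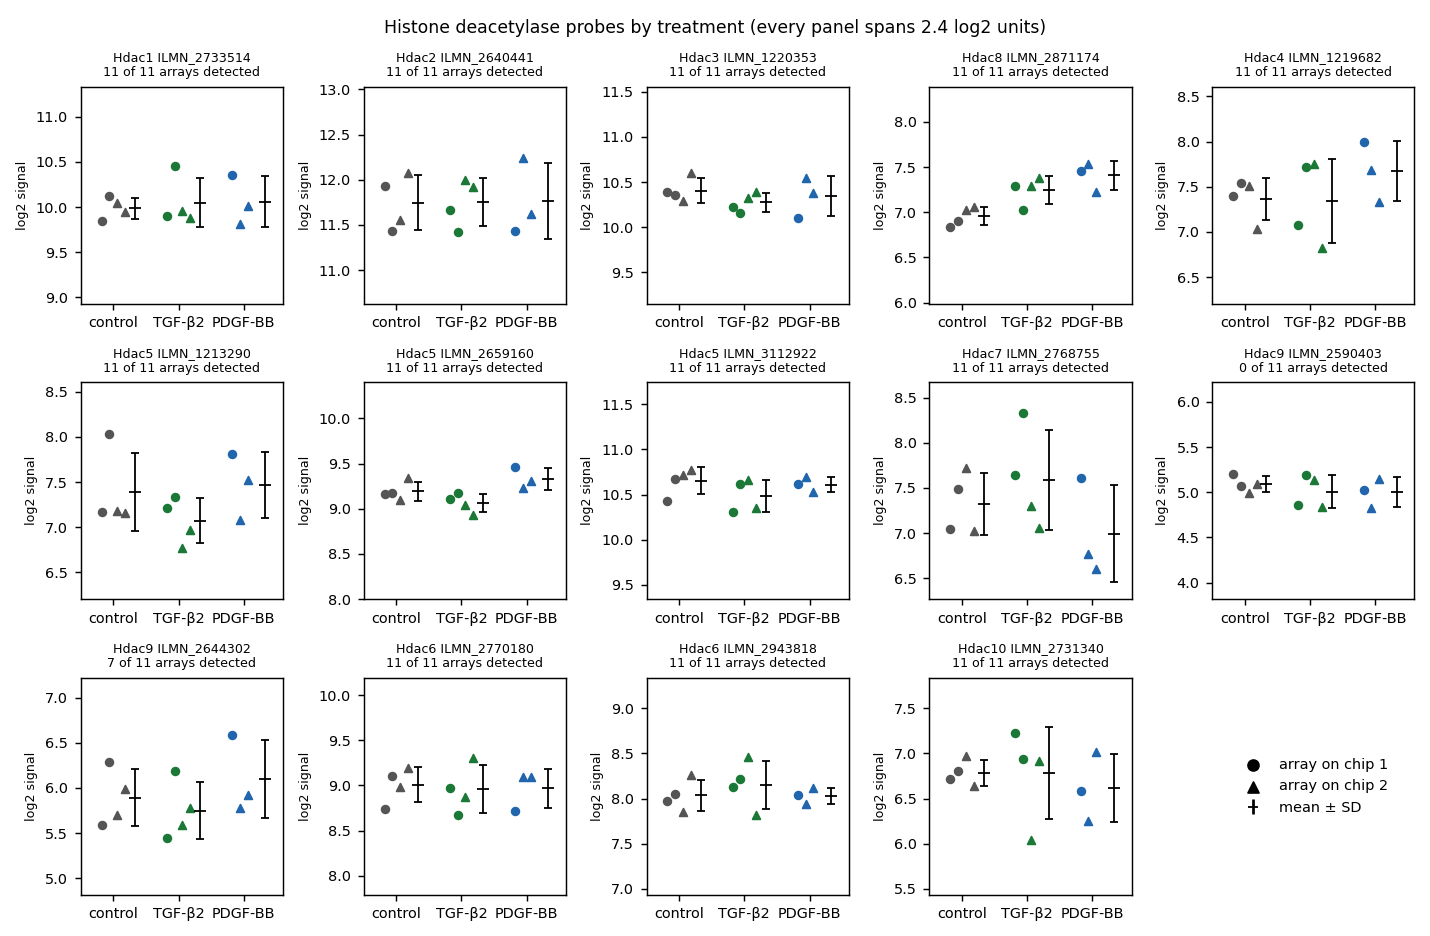
Log2 signal of each of the 14 histone deacetylase probes (vertical axis, 2.4 log2 units in every panel) in the control, TGF-β2 and PDGF-BB groups, with 1 point per array, circles for chip 1, triangles for chip 2 and bars for the mean ± SD. The Hdac8 points of PDGF-BB lie above all 4 control points, whereas Hdac7 spans 6.61 to 8.33 with every group overlapping another.

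Of the class I genes, only Hdac8 had groups that did not overlap, and no class I probe passed the test. Hdac1 and Hdac2 encode the paired catalytic subunits of the Sin3, NuRD and CoREST complexes. The Hdac1 probe ILMN_2733514 read 9.85, 10.12, 10.04 and 9.94 in control cells, 9.90, 10.45, 9.96 and 9.88 with TGF-β2 and 10.36, 9.81 and 10.01 with PDGF-BB. The highest values were those of TGF-β2 array 2, PDGF-BB array 1 and control array 2, each the highest of its own group. Against control, Hdac1 had a log2 fold change of 0.06 (95% interval -0.30 to 0.42) with TGF-β2 and 0.07 (-0.32 to 0.46) with PDGF-BB.

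The Hdac2 probe ILMN_2640441 read 11.93, 11.43, 11.56 and 12.07 in control cells, 11.67, 11.42, 12.00 and 11.92 with TGF-β2 and 11.43, 12.24 and 11.62 with PDGF-BB. The 3 arrays with the highest Hdac1 values gave the lowest Hdac2 value of their own group. They ranked 1, 2 and 4 from the lowest in mean signal before normalization, and the part of signal strength in these values was not tested. Against control, the fold change of Hdac2 was 0.01 on the log2 scale with either factor (95% interval -0.45 to 0.46 with TGF-β2 and -0.48 to 0.51 with PDGF-BB). The spread within groups, an SD of 0.32, was above that of 67.1% of the tested probes.

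Hdac3, the catalytic subunit of the NCoR and SMRT complexes, was among the steadier probes. ILMN_1220353 read 10.39, 10.35, 10.29 and 10.60 in control cells, 10.23, 10.16, 10.32 and 10.39 with TGF-β2 and 10.11, 10.54 and 10.38 with PDGF-BB. The groups overlapped, with a log2 fold change of -0.13 (95% interval -0.43 to 0.17) for TGF-β2 and -0.06 (-0.39 to 0.26) for PDGF-BB against control.

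Hdac8 encodes a class I enzyme that works outside the large corepressor complexes and deacetylates the cohesin subunit SMC3. The probe ILMN_2871174 read 6.84, 6.91, 7.02 and 7.06 in control cells and 7.46, 7.54 and 7.22 with PDGF-BB. All 3 PDGF-BB arrays lay above all 4 control arrays, a pattern that 1.95% of the tested probes showed in that direction. The log2 fold change was 0.45 (95% interval 0.13 to 0.76), or 1.37-fold, with an unadjusted p = 0.00868 and an adjusted p = 0.9998 in limma over 12894 probes, so it was not called. Of the tested probes, 0.481% had a lower p in this comparison.

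With TGF-β2 the Hdac8 probe read 7.29, 7.02, 7.29 and 7.38, and 3 of these 4 arrays lay above the highest control array while array 2 lay among the controls. Same-numbered TGF-β2 and control arrays deviated together over all tested probes, and within these pairs Hdac8 was higher with TGF-β2 in 4 of 4, by 0.46, 0.11, 0.27 and 0.32, as were 6.47% of all tested probes. Fitted on these 8 arrays with the pair as a block, a choice made after seeing the data, the interval was 0.03 to 0.55 (unadjusted p = 0.0328, adjusted p = 0.827, limma), so it was not called either. Without the block, the log2 fold change against control was 0.29 (95% interval -0.0026 to 0.58, unadjusted p = 0.0518, adjusted p = 0.9999, limma), and between TGF-β2 and PDGF-BB it was -0.16 (-0.48 to 0.15). The comparisons with control share the same 4 control arrays. A block for chip gave 0.43 with PDGF-BB, chip 1 alone 0.59 and chip 2 alone 0.34. For TGF-β2 these values were 0.29, 0.28 and 0.29. Over the alternatives the PDGF-BB value ranged from 0.32 to 0.59, and its lowest adjusted p was 0.515 (limma). Because the PDGF-BB and control arrays did not overlap, its sign with an array left out or on 1 chip was largely fixed in advance. The standard error over the beads of 1 array had a median of 10.99% of the Hdac8 signal, and the spread between arrays of a group was 10.8%.

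No class IIa probe passed the test. Of the 6 tested probes of this class, 5 had a negative log2 fold change with TGF-β2 against control and 1 a positive one, where 49.2% of all tested probes lay above 0. Of these 5 probes, 3 belong to Hdac5 and so share 1 gene. The remaining ones were Hdac4, at -0.03 and below 0 in 18 of 23 alternatives, and Hdac9, which lay near background. With PDGF-BB against control, 4 of the 6 lay above 0, where 52.2% of all tested probes did.

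Hdac4, a repressor of MEF2 factors in muscle, was read by ILMN_1219682 at 7.40, 7.54, 7.51 and 7.03 in control cells. With TGF-β2 the values were 7.08, 7.72, 7.76 and 6.82, and with PDGF-BB they were 7.99, 7.69 and 7.34. The TGF-β2 arrays were split into 2 above all controls and 1 below them, and the groups overlapped in every comparison. Against control the log2 fold change was -0.03 (95% interval -0.52 to 0.47) with TGF-β2 and 0.30 (-0.23 to 0.84) with PDGF-BB. Without PDGF-BB array 1 the latter was 0.15, and without PDGF-BB array 3 it was 0.47.

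Hdac5, a class IIa enzyme that leaves the nucleus when phosphorylated in hypertrophic signalling, was detected on all 11 arrays by each of its 3 probes. ILMN_3112922, which the platform assigns to another RefSeq transcript of the gene than the other probes, read 10.43, 10.68, 10.72 and 10.78 in control cells. It read 10.31, 10.62, 10.66 and 10.35 with TGF-β2 and 10.61, 10.70 and 10.53 with PDGF-BB. The groups overlapped, with log2 fold changes against control of -0.17 (95% interval -0.47 to 0.13) for TGF-β2 and -0.04 (-0.36 to 0.28) for PDGF-BB. In 4 of 4 pairs of same-numbered arrays the value was lower with TGF-β2 than in control cells, as for 6.76% of all tested probes, with differences from -0.42 to -0.06 and a blocked interval of -0.44 to 0.10. Leaving out 1 array moved the TGF-β2 value to between -0.24 and -0.11.

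The Hdac5 probe ILMN_2659160 had the smallest spread within groups of the tested members, an SD of 0.11, and only 2.74% of all tested probes had a smaller one. It read 9.16, 9.17, 9.10 and 9.34 in control cells, 9.11, 9.17, 9.04 and 8.93 with TGF-β2 and 9.46, 9.22 and 9.31 with PDGF-BB. All TGF-β2 arrays lay below all PDGF-BB arrays, a pattern that 1.71% of the tested probes showed in that direction, and both groups overlapped the controls. Between TGF-β2 and PDGF-BB the log2 fold change was -0.27 (95% interval -0.56 to 0.02, unadjusted p = 0.0654, adjusted p = 0.9999, limma). Chip 1 alone, with 1 PDGF-BB array, gave -0.33, chip 2 alone -0.28 and a block for chip -0.29. Over the alternatives the value ranged from -0.33 to -0.21. Because these 2 groups did not overlap, its sign with an array left out or on 1 chip was largely fixed in advance.

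The third Hdac5 probe, ILMN_1213290, read 7.17, 8.03, 7.18 and 7.16 in control cells, 7.21, 7.34, 6.77 and 6.97 with TGF-β2 and 7.81, 7.08 and 7.52 with PDGF-BB. Control array 2 stood apart, with the other 3 control arrays between 7.16 and 7.18. With TGF-β2 the log2 fold change was -0.31 (95% interval -0.80 to 0.18), and without control array 2 it was -0.10. With PDGF-BB it was 0.09 (-0.44 to 0.61), and without control array 2 it was 0.30.

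Hdac7, known above all from the developing endothelium and from thymocytes, had the widest spread of the tested members. ILMN_2768755 read 7.04, 7.49, 7.73 and 7.03 in control cells, 7.65, 8.33, 7.30 and 7.06 with TGF-β2 and 7.61, 6.76 and 6.61 with PDGF-BB. Its within-group SD of 0.48 was above that of 92.8% of all tested probes, and the groups overlapped. The log2 fold change was 0.26 (95% interval -0.36 to 0.89) with TGF-β2 and -0.33 (-1.0 to 0.35) with PDGF-BB against control, and 0.59 (-0.08 to 1.27, unadjusted p = 0.0802, adjusted p = 0.9999, limma) between TGF-β2 and PDGF-BB. The chips gave opposite signs, 0.72 on chip 1 and -0.19 on chip 2 for TGF-β2 against control, and 0.34 and -0.69 for PDGF-BB against control. Without TGF-β2 array 2 the TGF-β2 value was 0.02, and without PDGF-BB array 1 or 3 the PDGF-BB value was -0.64 or -0.13. Between TGF-β2 and PDGF-BB the values were 0.38 on chip 1 and 0.50 on chip 2. The value on chip 1 rests on 1 PDGF-BB array, at 7.61, beside TGF-β2 arrays 1 and 2 at 7.65 and 8.33. Over both chips the value was 0.35 without TGF-β2 array 2 and 0.91 without PDGF-BB array 1. For the tested Hdac9 probe the log2 fold change against control was -0.14 (-0.62 to 0.34) with TGF-β2 and 0.20 (-0.32 to 0.72) with PDGF-BB. It was lower with TGF-β2 in 4 of 4 pairs of same-numbered arrays, by differences of -0.14, -0.11, -0.11 and -0.21. In pairs 1 and 3 the probe was detected on neither array, so those differences lie between signals near background. With the pair as a block, the interval was -0.38 to 0.10 (adjusted p = 0.872, limma). Hdac9 and the Hdac5 probe ILMN_3112922 were the 2 of 13 members that were lower in every pair, beside 6.76% of all tested probes. Leaving out array 2 of the controls or of the TGF-β2 group moved the Hdac9 value to -0.0081 or -0.29.

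Neither class IIb gene passed the test, and their groups overlapped in all comparisons. Hdac6 encodes the cytoplasmic deacetylase of α-tubulin, which also binds ubiquitinated proteins. The probe ILMN_2770180 read 8.74, 9.11, 8.99 and 9.19 in control cells, 8.98, 8.67, 8.87 and 9.31 with TGF-β2 and 8.72, 9.10 and 9.09 with PDGF-BB. ILMN_2943818 read 7.98, 8.05, 7.85 and 8.27 in control cells, 8.12, 8.21, 8.46 and 7.81 with TGF-β2 and 8.04, 7.94 and 8.12 with PDGF-BB. On the TGF-β2 arrays they ran opposite to each other, with array 4 the highest of its group for the first and the lowest for the second. The log2 fold changes of TGF-β2 against control were -0.05 (95% interval -0.41 to 0.31) and 0.12 (-0.22 to 0.45), and those of PDGF-BB were -0.04 (-0.43 to 0.36) and -0.01 (-0.37 to 0.36).

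Hdac10 encodes a polyamine deacetylase. ILMN_2731340 read 6.72, 6.81, 6.97 and 6.64 in control cells, 7.23, 6.94, 6.05 and 6.92 with TGF-β2 and 6.58, 6.26 and 7.01 with PDGF-BB. TGF-β2 array 3 was the lowest of all 11 arrays and TGF-β2 array 1 the highest. The log2 fold change of TGF-β2 against control was -0.0003 (95% interval -0.51 to 0.51), with 0.32 on chip 1 alone and -0.32 on chip 2 alone. With PDGF-BB it was -0.17 (-0.72 to 0.38).

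Of the 14 probes 13 were tested, because they were detected at p under 0.05 on 3 or more arrays, as were 50.2% of all probes. Of these, 0 were called in any of the 3 comparisons at an adjusted p under 0.05 in limma, and 0% of the 12894 tested probes were called. At an unadjusted p under 0.05, 0 members and 2.02% of all tested probes passed for TGF-β2 against control, 1 member (Hdac8) and 3.2% for PDGF-BB against control, and 0 members and 5.13% for TGF-β2 against PDGF-BB. Groups that did not overlap were found for 0 members (1.38% of all tested probes), 1 (3.65%) and 1 (5.12%) in the same order.

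**Figure D2:**
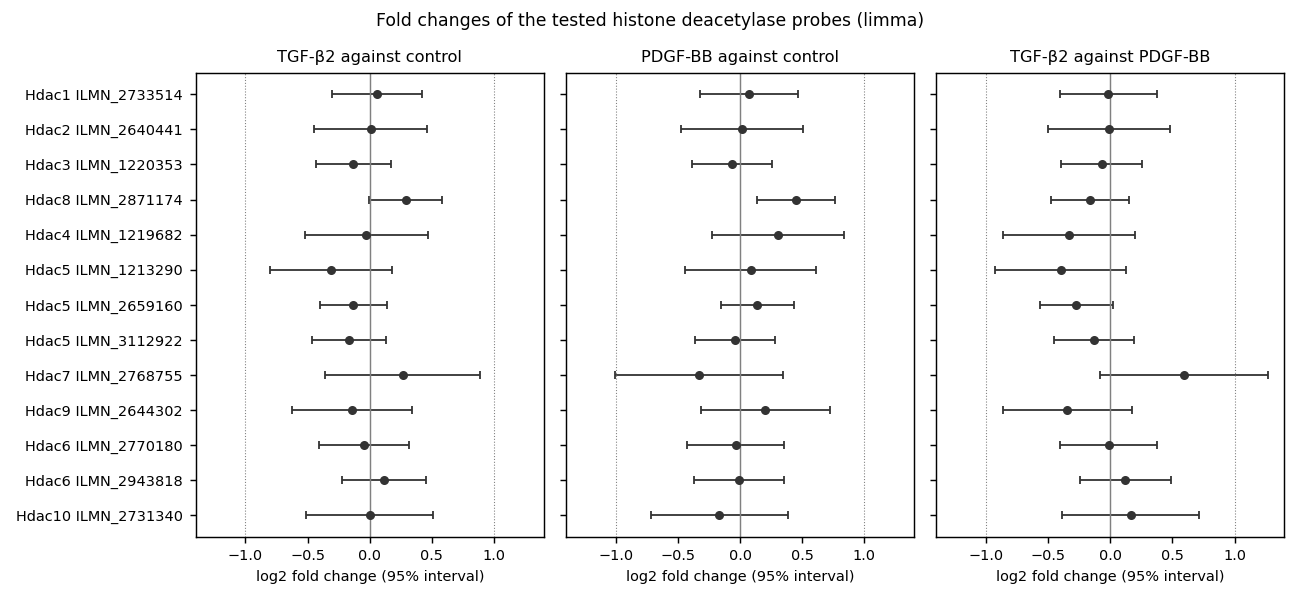
Log2 fold change (horizontal axis, points) with its 95% interval (bars) of the 13 tested histone deacetylase probes in each of the 3 comparisons, fitted with limma, with dotted lines at a 2-fold change. Every interval of the panel for TGF-β2 against control lies within the dotted lines, and 1 interval, that of Hdac7, passes them in each of the other panels.

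The intervals limit how large a change of these log2 signals could be under this processing. For probes near background they depend on it. Over the alternatives, the tested Hdac9 probe reached 0.64 for PDGF-BB against control and -0.77 for TGF-β2 against PDGF-BB, from 0.20 and -0.34. For TGF-β2 against control, all 13 intervals lay within a 2-fold change in either direction, as did 96.6% of those of all tested probes. For PDGF-BB against control and for TGF-β2 against PDGF-BB, 12 of 13 lay within it, where 92.8% and 92.2% of all tested probes did, and the exception was Hdac7 in both. Within a 1.5-fold change lay 10, 7 and 8 of the 13 intervals, beside 63.3%, 51.1% and 51.6% of those of all tested probes. For TGF-β2 against PDGF-BB, 3 of the 13 members lay above 0, where 44.9% of all tested probes did. The median log2 fold change of the members was -0.03, 0.01 and -0.07 in these comparisons, beside -0.0028, 0.01 and -0.02 for all tested probes.

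Probes of 1 gene were compared through the difference of their log2 signals on each array, so that no probe's level was set against another's. The 4 pairs of tested members, 3 of Hdac5 and 1 of Hdac6, were fitted with all 4639 pairs of tested probes that share a gene symbol. None of the 4 pairs was called in any comparison (0 called and 0 at an unadjusted p under 0.05, limma, lowest adjusted p = 0.998), where 0% of all pairs were called and 2.03%, 3.28% and 4.16% had an unadjusted p under 0.05. The widest gap was between the Hdac5 probes ILMN_1213290 and ILMN_3112922 for TGF-β2 against PDGF-BB, -0.27 on the log2 scale (95% interval -0.89 to 0.34). Without PDGF-BB array 1 this gap was -0.11, as it was without TGF-β2 array 3, and without PDGF-BB array 2 it was -0.51. All 3 Hdac5 probes lay below 0 for TGF-β2 against control and for TGF-β2 against PDGF-BB, while for PDGF-BB against control 2 lay above 0 and 1 below.

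**Figure D3:**
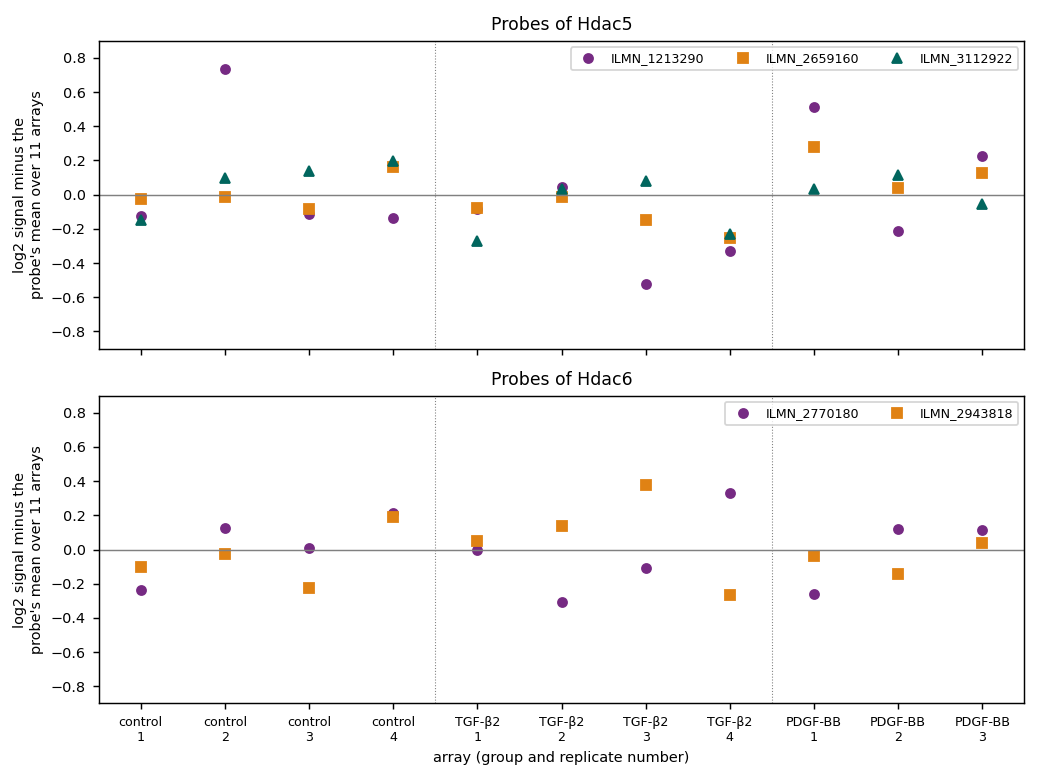
Log2 signal of each probe minus that probe's own mean over 11 arrays (vertical axis) on every array (horizontal axis), for the 3 probes of Hdac5 and the 2 of Hdac6. The Hdac5 probe ILMN_1213290 departs from the others on control array 2, and the Hdac6 probes part on TGF-β2 arrays 2, 3 and 4.

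The Hdac5 probes ILMN_2659160 and ILMN_3112922 tracked each other closely, with a within-group SD of 0.16 for their difference. Only 11.3% of the pairs on the array had a smaller SD, and the median over all pairs was 0.33. The differences with ILMN_1213290 had SDs of 0.33 and 0.40, and that of the Hdac6 probes had 0.34. Over these pairs, 50.7%, 66.3% and 53.3% of all pairs had a smaller SD.

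A median of 26 to 47 beads carried each member probe, and without Hdac9 the standard error over beads was 2.45% to 18.5% of the signal. For 12 of the 13 tested members, the coefficient of variation (CV) between arrays of a group exceeded the median bead error, as it did for 97.8% of all tested probes, and the exception was Hdac8. The spread between arrays holds that between flasks, so a larger value than the bead error is the usual case and is not particular to the members. Of the 13 members, 6 had a within-group SD above the median of all tested probes, 0.27 on the log2 scale, among them Hdac4, Hdac7 and Hdac10.

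**Figure D4:**
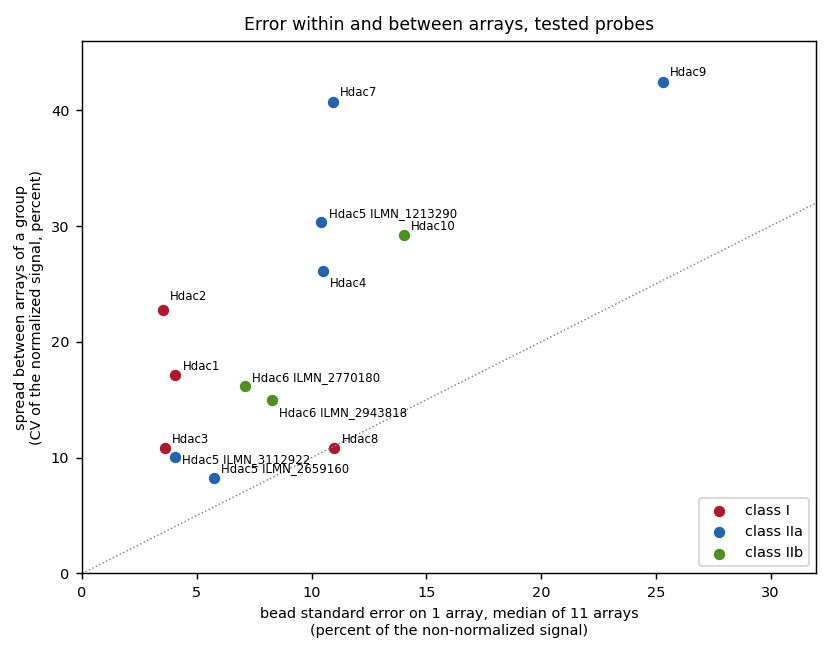
Spread between arrays of a group (vertical axis, CV of the authors' normalized signal in percent) against the standard error over beads on 1 array (horizontal axis, median of 11 arrays in percent of the signal) for the 13 tested histone deacetylase probes, coloured by class. The dotted line marks equal values, and Hdac8 at 10.99% and 10.8% is the point just below it.

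The partners of the deacetylases were read from 5 lists, with 1 probe per gene, and 0 genes were called in any comparison (limma). Class III and IV deacetylases, the sirtuins and Hdac11, had 7 of 8 genes on the array and 7 tested, with 0 at an unadjusted p under 0.05 in each comparison. Their log2 fold changes lay between -0.15 and 0.06 for TGF-β2 and between -0.10 and 0.24 for PDGF-BB against control. For TGF-β2 against PDGF-BB they lay between -0.32 and -0.04, with 0 of 7 above 0, where 44.9% of all tested probes were. Hdac11, the class IV enzyme, met the cell filter on 9 of 11 arrays.

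Of 35 corepressor genes, 29 were on the array and 23 tested. At an unadjusted p under 0.05, 0 were higher or lower for TGF-β2 against control, 1 was lower for PDGF-BB against control and 4 were higher for TGF-β2 against PDGF-BB. Of all tested probes, 1.89% were lower at that level in the former of these comparisons and 3.69% higher in the latter. Rcor1, the scaffold of the CoREST complex that holds HDAC1 and HDAC2, read 7.85, 6.95, 7.69 and 7.14 in control cells, 7.78, 7.78, 7.96 and 7.69 with TGF-β2 and 6.15, 7.03 and 7.41 with PDGF-BB. All TGF-β2 arrays lay above all PDGF-BB arrays, as for 3.41% of the tested probes. Between them the log2 fold change was 0.94 (95% interval 0.33 to 1.54, unadjusted p = 0.00514, adjusted p = 0.755, limma), with 1.63 on chip 1 and 0.60 on chip 2. Ing1, a subunit of the Sin3 complex, was 0.73 higher (0.20 to 1.27, adjusted p = 0.774, limma), and Tbl1x, of the NCoR complex, had a log2 fold change of -0.59 (-1.13 to -0.05, adjusted p = 0.9998, limma) for PDGF-BB against control.

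The MEF2 factors and the kinases, phosphatases and escorts of class IIa enzymes were all on the array, 36 genes, with 29 tested. At an unadjusted p under 0.05, 1 was higher for TGF-β2 against control, 2 were higher and 1 lower for PDGF-BB against control, and 3 were higher for TGF-β2 against PDGF-BB. Higher at that level were 1.09% of all tested probes for TGF-β2 and 1.3% for PDGF-BB against control. For TGF-β2 against PDGF-BB 3.69% were higher, and for PDGF-BB against control 1.89% were lower. Rfxank, an ankyrin repeat protein that binds class IIa deacetylases, read 5.48, 6.17, 5.61 and 5.86 in control cells and 6.55, 6.83, 6.22 and 6.19 with TGF-β2. All TGF-β2 arrays lay above all controls, as for 0.682% of the tested probes, and the log2 fold change was 0.67 (95% interval 0.23 to 1.10, unadjusted p = 0.00562, adjusted p = 0.9999, limma), with 0.86 on chip 1 and 0.47 on chip 2. Rfxank met the cell filter on 2 of 4 control arrays and on all 4 TGF-β2 arrays, and its value ranged from 0.39 with no background correction to 1.05 with the authors' normalized signals. Camk2a, a calcium/calmodulin kinase, had a log2 fold change of 0.48 for PDGF-BB against control (0.13 to 0.83, adjusted p = 0.9998, limma). All its PDGF-BB arrays lay above all controls, as for 1.95% of the tested probes. The margin was narrow, with the lowest PDGF-BB array at 6.2041 and the highest control array at 6.1955. Camk2a met the cell filter on all 11 arrays, but its detection p-value was under 0.01 on only 2 of 4 control arrays. Its value ranged from 0.28 to 0.67 over the alternatives. Sik1, a salt-inducible kinase that phosphorylates class IIa enzymes, met the cell filter on all 4 control arrays but on 1 of 3 PDGF-BB arrays, with the other PDGF-BB arrays at 5.19 and 5.21. Its fitted log2 fold change of -0.62 (-1.08 to -0.17, adjusted p = 0.9998, limma) thus includes arrays on which Sik1 did not pass. It was -1.50 with the authors' normalized signals, -0.37 with an offset of 50 and -0.29 on chip 1 alone, and Sik1 was not tested where detection at p under 0.01 on at least 3 arrays was required. Between TGF-β2 and PDGF-BB, the protein kinase D gene Prkd3 differed by 0.68 (0.17 to 1.18, adjusted p = 0.780, limma) and the coactivator gene Myocd by 0.79 (0.19 to 1.38, adjusted p = 0.783, limma). PDGF-BB array 1 was the lowest of the 11 arrays for Prkd3, Myocd, Tbl1x and Rcor1. Without it, the values between TGF-β2 and PDGF-BB were 0.47 for Prkd3, 0.54 for Myocd and 0.58 for Rcor1, and that of Tbl1x for PDGF-BB against control was -0.32.

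Of 15 histone acetyltransferase genes, which act against the deacetylases, 11 were on the array and all of these were tested. At an unadjusted p under 0.05, 0 passed in either comparison with control. For TGF-β2 against PDGF-BB 1 was higher, as were 3.69% of all tested probes. It was the nuclear receptor coactivator gene Ncoa3 (0.60 on the log2 scale, 95% interval 0.0071 to 1.196, adjusted p = 0.967, limma). Ncoa3 met the cell filter on 4 arrays, and its value ranged from 0.35 to 2.35 over the alternatives. Of 14 genes of HDAC6 substrates and cytoplasmic partners, 11 were on the array and 10 tested, with 0 at an unadjusted p under 0.05. Among these, the tubulin acetyltransferase gene Atat1 had a log2 fold change of 0.31 (-0.12 to 0.74) for PDGF-BB against control, and the chaperone gene Hsp90aa1, an HDAC6 substrate, had -0.35 (-0.92 to 0.21) for TGF-β2 against control. Leaving out 1 array moved these values to between 0.15 and 0.41 and between -0.51 and -0.205.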

How the data were processed

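HL-1 cells were analysed on 11 Illumina MouseRef-8 arrays. The authors deposited, per probe and array, a background-subtracted, non-normalized signal intensity, its standard error and number of beads, and a detection p-value. Normalized signals, which the authors made with the cubic spline algorithm of Beadstudio, were deposited too. Per the labels the processing used GenomeStudio, and the genome build is not given in the sources used here. The deposited values carry no sequencing depth, so the number of arrays and beads limits the precision.

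The non-normalized signals were processed with neqc (offset 16) in limma 3.58.1 and R 4.3.3, which uses the detection p-values for the background, quantile-normalizes and takes log2. The 12894 probes (50.2%) detected at p under 0.05 on 3 or more of the 11 arrays were fitted with 1 mean per group on all arrays (lmFit, eBayes) and adjusted by Benjamini-Hochberg. Pairs of probes with 1 gene symbol were fitted likewise. Figures were drawn with matplotlib in Python 3.11.15.

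The members were taken by the symbols of the platform annotation, which gave 1 symbol for 23978 probes, several for 0 and none for 1719. Partner and marker genes were found by current symbols, matched through the gene identifier for 23962 probes. Every member probe is named, and of each partner list the 2 genes of lowest unadjusted p per comparison were eligible, with the tested probe of highest mean per gene. The members and lists were chosen with earlier results of these data known. Same-numbered arrays of the control and TGF-β2 groups deviated together (correlations 0.191, 0.400, 0.504 and 0.371) and were read as pairs. They lie on the same chip in neighbouring positions, and a shared culture cannot be told apart from a shared position. By number, the correlations of PDGF-BB were -0.442 to 0.203 with control and -0.328 to 0.328 with TGF-β2. PDGF-BB arrays 2 and 3 lie beside arrays 3 and 4 of the other groups, so these numbers do not match by position. PDGF-BB array 1, which does match, had -0.138 with control and 0.182 with TGF-β2. The highest values, 0.203 and 0.328, were those of PDGF-BB array 3, and the part of position was not tested. Alternatives changed the normalization, background, offset, filter, chip, position, pairing, array weights and arrays included.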

Additional observations from a re-analysis of the deposited data

Results flagged for a closer look

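Dixon's ratio, the gap of an end array from its neighbour over the group's range, was taken in the groups of 4 arrays for the 13 tested deacetylase probes and 2 overall measures of the arrays. The ratio passed its 95% critical value in 2 of 30 cases, and about 1.5 are due by chance. The Hdac1 probe ILMN_2733514 read 10.4512 on TGF-β2 array 2, with the other TGF-β2 arrays between 9.88 and 9.96 (ratio 0.863). Without that array, the log2 fold change of Hdac1 for TGF-β2 against control was -0.08. The Hdac5 probe ILMN_1213290 read 8.0322 on control array 2, with the other control arrays between 7.16 and 7.18 (ratio 0.969), while the other Hdac5 probes did not stand apart there. Both arrays carry the number 2 in their group and lay on chip 1.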

How the results depend on the processing

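No deacetylase probe, pair of probes or partner gene was called under any alternative (limma, lowest adjusted p = 0.263), and the count of called probes stayed at 0 over all tested probes. The number of members passing the cell filter, by group or in all 3 groups, ranged from 8 to 13. The share of all probes under the same alternatives is not given here. At a signal minimum of 100, the probes of Hdac4, Hdac7 and Hdac10 and the Hdac5 probe ILMN_1213290 no longer passed on every array. Their lowest normalized signals were 98.8, 81.4, 48.9 and 94.5. Of 1532 single-probe log2 fold changes recomputed, 88 lay on the other side of 0, of which 47 came from leaving out 1 array. Their main log2 fold changes were between 0.0003 and 0.33 in size, and the causes were not tested. The number of arrays, and chip 1 with its lone PDGF-BB array, whose spread is taken from the other groups, limit what could be detected. Hdac9, Ncoa3, Sik1, Rfxank and Camk2a lie near background.

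On chip 2 alone, the values on the other side of 0 were, for TGF-β2 against control, Hdac1 -0.073, Hdac4 0.017, Hdac7 -0.19 and Hdac6 ILMN_2770180 0.0017. For PDGF-BB against control they were Hdac1 -0.079, Hdac3 0.019, Hdac6 ILMN_2770180 0.0062 and Sirt6 -0.044, and for TGF-β2 against PDGF-BB Hdac1 0.0059, Hdac2 0.035, Hdac10 -0.15 and Sirt5 0.14. On chip 1 alone they were, in the same order of comparisons, Hdac2 -0.14 and Hdac10 0.32, then Hdac2 -0.25, Hdac5 ILMN_3112922 0.057, Hdac7 0.34 and Hdac6 ILMN_2943818 0.027, then Hdac2 0.11, Hdac3 0.090 and Hdac6 ILMN_2770180 0.10. With array weights they were Hdac2 -0.053, Hdac6 ILMN_2770180 0.11 and Hdac10 0.19, then Hdac2 -0.082, Hdac6 ILMN_2770180 0.13, Hdac6 ILMN_2943818 0.048 and Hdac10 0.033, then Hdac2 0.029. For TGF-β2 against control, Hdac10 was at 0.013 with no background correction and 0.012 with an offset of 50. With the authors' normalized signals, Hdac2 was at 0.0054 for TGF-β2 against PDGF-BB.

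With chip as a block, Hdac2 was at -0.040 for PDGF-BB against control and, for TGF-β2 against PDGF-BB, Hdac2 was at 0.046 and Hdac6 ILMN_2770180 at 0.029. With chip and array position as a block, PDGF-BB against control gave Hdac2 -0.093 and Hdac6 ILMN_2943818 0.0063, and TGF-β2 against PDGF-BB gave Hdac2 0.099 and Hdac6 ILMN_2770180 0.018. The replicate block changed no call, with 0 members called in each comparison. With it, Hdac6 ILMN_2770180 was at 0.053 for PDGF-BB against control and Hdac1 at 0.022 for TGF-β2 against PDGF-BB. It joins PDGF-BB arrays 2 and 3 to arrays at other positions, so its PDGF-BB values are not from matched arrays. Fitted without the PDGF-BB arrays, a choice made after seeing the data, the replicate block also called 0 members, with Hdac8 at 0.29 (adjusted p = 0.827, limma).

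With each array left out in turn, the values that changed sign for TGF-β2 against control ranged from -0.076 to 0.12 for Hdac1, -0.098 to 0.12 for Hdac2, -0.16 to 0.15 for Hdac4, -0.17 to 0.046 for Hdac6 ILMN_2770180, -0.15 to 0.24 for Hdac10 and -0.31 to 0.0034 for Sirt1. For PDGF-BB against control they ranged from -0.075 to 0.20 for Hdac1, -0.22 to 0.18 for Hdac2, -0.16 to 0.056 for Hdac3, -0.082 to 0.30 for Hdac5 ILMN_1213290, -0.11 to 0.0020 for Hdac5 ILMN_3112922, -0.044 to 0.36 for Hdac9, -0.12 to 0.089 for Hdac6 ILMN_2770180, -0.067 to 0.069 for Hdac6 ILMN_2943818, -0.36 to 0.013 for Hdac10, -0.028 to 0.26 for Sirt5 and -0.42 to 0.013 for Ncoa3. For TGF-β2 against PDGF-BB they ranged from -0.15 to 0.13 for Hdac1, -0.17 to 0.23 for Hdac2, -0.19 to 0.031 for Hdac3, -0.14 to 0.082 for Hdac6 ILMN_2770180, -0.013 to 0.41 for Hdac10 and -0.24 to 0.048 for Sirt5.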
